A study of Mus musculus with 4 samples.

Results

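Galectins are proteins that bind beta-galactoside sugars on glycoproteins, both outside the cell and, when membranes are damaged, inside it. The family holds prototype galectins with a lone sugar-binding domain (Lgals1, Lgals7), a chimeric galectin that forms oligomers (Lgals3) and tandem-repeat galectins with a pair of domains (Lgals4, Lgals8, Lgals9). Lgals3bp encodes galectin-3 binding protein, a heavily glycosylated secreted protein that galectin-3 and other galectins bind, and that also binds matrix proteins and integrins. In the rat, a galectin close in sequence to galectin-9 is known from the surface of reticulocytes.

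The 7 genes described here (Lgals1, Lgals3, Lgals3bp, Lgals4, Lgals7, Lgals8 and Lgals9) were picked by symbol from the 17393 genes of the deposited table. They were measured in DS19 mouse erythroleukemia (MEL) cells, a transformed erythroid precursor line, with 2 libraries of Wdr26-/- cells and 2 libraries of wild-type cells, numbered 1 and 2 in each genotype. Wdr26 is a subunit gene of the CTLH ubiquitin ligase. All groups share the line and the culture medium, whose description names 1.5% dimethyl sulfoxide as the inducer of differentiation without saying whether the sequenced cells received it. The sources used here do not say whether the knockout cells were derived from 1 clone, nor whether each library had its own culture. All p-values therefore reflect the spread among these libraries alone, which may be technical.

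Levels are in FPKM, a fragment number corrected for transcript length and sequencing depth, so that genes of different lengths can be set side by side. The steps between the lowest values put the depth at 18800000 to 26600000 fragments a library, depending on the effective transcript length assumed. Wdr26 itself had 9 and 7.84 FPKM in the knockout and 55.39 and 52.41 FPKM in wild type, a knockout mean of 15.6% of the wild-type mean. Erythroid markers defined the cells in all 4 libraries, with Gata1 between 451.4 and 525.09 FPKM. Of 12 erythroid markers, 8 had both knockout values below both wild-type values (66.7%, beside 10.8% of all genes tested). The median difference of the 12 markers on the log2(FPKM + 1) scale was −0.34, beside 0.07 over all genes tested. Knockout and wild type were compared by limma on log2(FPKM + 1) over the 10670 genes that reached 1 FPKM in 2 or more libraries. In that fit 10 genes had a Benjamini-Hochberg adjusted p under 0.05, 0.0937% of those tested, 5 higher and 5 lower in the knockout (0.0469% in each direction). The 7 genes were chosen with this contrast already known. Their differences and their places in the fit are therefore a description and not an independent test.

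Of the 7 genes, Lgals3bp rose in the knockout and none of the galectins themselves passed the test. Lgals3bp was 5.75-fold higher in the knockout, the largest rise on the log2(FPKM + 1) scale among the 10670 genes tested. That place depends on the added 1 FPKM, which weighs more on genes at lower levels. The ratio of means was larger for the less abundant genes Pdgfb (8.65), Il2rg (8.385) and M1ap (7.461). Lgals1 was 1.74-fold higher, Lgals7 was listed at 0 in both knockout libraries, and the levels of Lgals3, Lgals4 and Lgals9 overlapped between genotypes. Of the 6 genes of the group that were tested, 1 (Lgals3bp) passed the adjusted threshold, higher in the knockout, as did 0.0469% of all genes tested. Both knockout values lay above both wild-type values for 3 of the 6, as for 29.9% of all genes tested, and below them for 1, as for 10.8%. Lgals3 reached 1 FPKM in 1 library only and did not pass the filter.

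**Figure D1:**
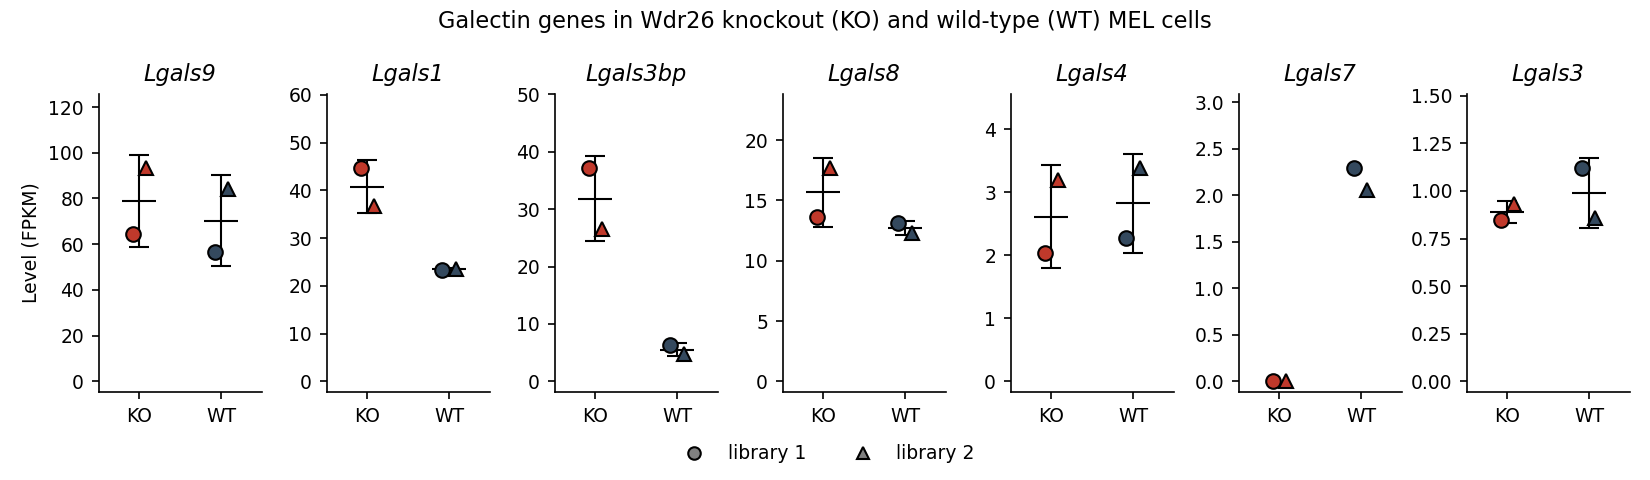
Level in FPKM of each galectin gene and of Lgals3bp (vertical axes, 1 scale per gene, starting near 0) in the knockout (KO, left) and wild-type (WT, right) libraries. Circles are library 1, triangles library 2, and the bar with caps is the mean with its SD (n = 2), not drawn for Lgals7. Lgals3bp sits at 26.57 and above in the knockout and at 6.34 and below in wild type, Lgals7 is listed at 0 in both knockout libraries, and Lgals9 and Lgals4 follow the library number more than the genotype.

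Lgals3bp (gene ID 19039, chromosome 11, 118392747 to 118401959, mm10) encodes the secreted ligand of the group. It stood at 37.15 and 26.57 FPKM in knockout libraries 1 and 2 and at 6.34 and 4.74 FPKM in wild-type libraries 1 and 2. Both knockout libraries lay far above both wild-type libraries, and library 1 was the higher in each genotype. The mean was 31.9 ± 7.48 FPKM in knockout and 5.54 ± 1.13 FPKM in wild type (SD, n = 2 each). The ratio of knockout to wild type was 5.86 between the libraries numbered 1 and 5.61 between those numbered 2. The difference on the log2(FPKM + 1) scale was 2.32 with a standard error of 0.21 (limma, adjusted p = 0.035 over all genes tested), which placed the gene 8th by p-value. In bulk RNA, a change in the number of cells that make a transcript and a change in the RNA per cell cannot be told apart. The adjusted p became 0.28 with no filter on low genes, 0.0782 among genes that average 5 FPKM or more and 0.0806 after quantile normalization. The limma adjusted p was 0.0366 with a pseudocount of 0.1, 0.0456 after median centring and 0.0434 without the mean-variance trend. With a replicate block for the library number it was 2.46e-23, in a fit that leaves 1 residual degree of freedom per gene. The log2 difference was 2.50 or 2.14 with wild-type library 1 or 2 left out, and 2.09 or 2.56 with knockout library 1 or 2 left out.

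The rise of Lgals3bp moved the gene within the group and within the transcriptome. In the knockout it was the third most abundant of the 7 genes in both libraries and made up 22.8% and 14.9% of their summed FPKM (libraries 1 and 2). In wild type it was the fourth, with 6.0% and 3.6% of the sum. Its level exceeded that of 80.7% and 73.9% of the tested genes in the knockout libraries, against 31.7% and 26.7% in the wild-type libraries. The sum over the 7 genes was 163.02 and 178.48 FPKM in knockout and 104.88 and 131.29 FPKM in wild type.

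**Figure D2:**
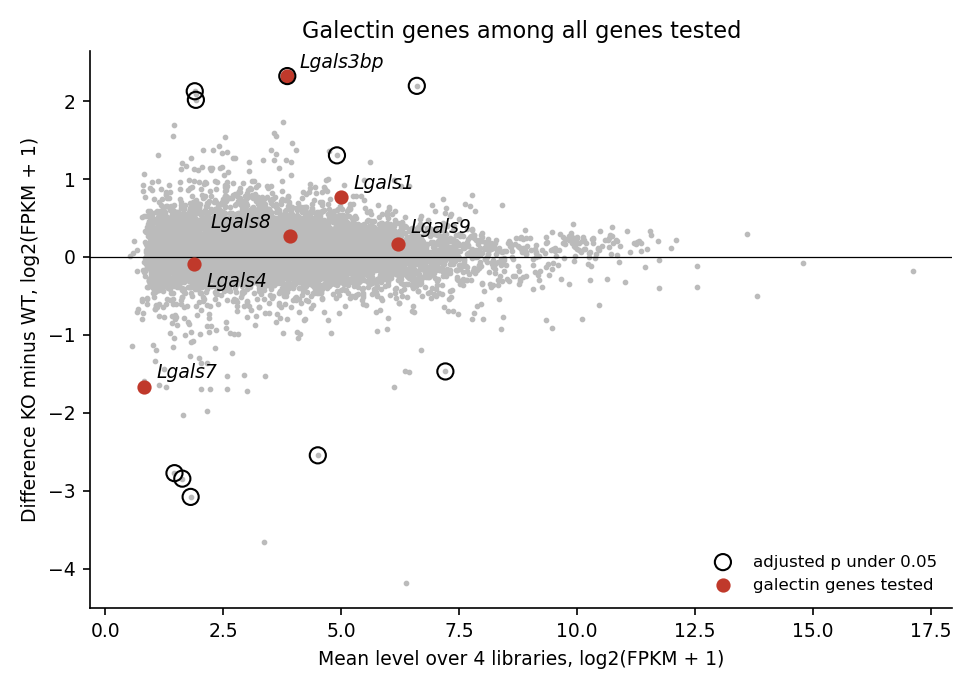
Difference between knockout and wild type on the log2(FPKM + 1) scale (vertical axis) against the mean level over the 4 libraries (horizontal axis) for the 10670 genes tested (grey). The 6 tested genes of the galectin group, Lgals3bp included, are red, and rings mark the 10 genes with an adjusted p under 0.05. Lgals3bp, at 2.32, is the highest point of the plot, a place that depends on the added pseudocount of 1. The place of Lgals7 depends on it too, because Lgals7 is listed at 0 in the knockout.

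Lgals3bp and Lgals9 are known as interferon-induced genes, and the sequence before their starts is shown for that reason. Promoter windows of 300 bases (250 before and 50 after the start) were taken from RefSeq on GRCm38.p6, which held 6 of the 7 genes and no window for Lgals1. The window was searched on both strands for the interferon-stimulated response element (the letters GAAA, any 2 bases, then GAAA again) and for the shorter core of interferon regulatory factors AANNGAAA, which every such element also contains. Of 32851 promoter windows of this length in the table, 3.4% held the element and 23.9% held the core. Lgals3bp held a single AANNGAAA, at positions -14 to -7 from its start, and no complete element. Lgals9 held the element at 2 places on the opposite strand, where it reads as a pair of TTTC, 1 before and 1 after its start, and 1 further core at -151 to -144. The windows of Lgals3, Lgals4, Lgals7 and Lgals8 held neither. For Lgals4, Lgals7 and Lgals8 the window surrounds a start inside the gene span given here, so the sequence before the outermost start was not searched. GATAA, the core of GATA factor sites, was in 25.4% of all windows and in none of the 6. A match of letters is a description and not evidence of binding. The 250 bases before the Lgals3bp start (chr11:118401960-118402209, minus strand) and 30 bases around each element of Lgals9 (chr11:78984960-78984989 and chr11:78984890-78984919, minus strand) are printed 5′ to 3′ with the matched letters in capitals.
Lgals3bp: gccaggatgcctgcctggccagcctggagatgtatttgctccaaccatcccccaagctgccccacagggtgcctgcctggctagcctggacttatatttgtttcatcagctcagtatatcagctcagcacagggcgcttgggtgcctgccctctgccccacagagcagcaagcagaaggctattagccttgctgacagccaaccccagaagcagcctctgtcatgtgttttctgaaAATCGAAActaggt
Lgals9, before the start: tgacatcagcTTTCTTTTTCtctagacact
Lgals9, after the start: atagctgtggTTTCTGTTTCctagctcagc

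Genes beside Lgals3bp on chromosome 11 were looked up as well. Cant1, a calcium-activated nucleotidase gene that begins 4329 bases beyond it, stood at 23.71 and 23.47 FPKM in knockout and at 19.26 and 19.75 FPKM in wild type. Both knockout libraries were higher, but the log2 difference was 0.26 and did not pass (limma adjusted p = 0.52). On the other side, Cep295nl lies 50204 bases away, and no gene of that symbol is in the deposited table. It was picked as the gene with the latest start among those that end before Lgals3bp. A gene with an earlier start may end nearer.

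By the distance between log2 values centred on each gene's own mean over the 4 libraries, the genes most like Lgals3bp among the 10664 tested genes outside the galectin group were Il2rg, M1ap, Pdgfb, Tnni3 and an unnamed locus built from assembled transcripts (BGI_novel_G000925). The nearest, Il2rg, which encodes the common gamma chain of several interleukin receptors, stood at 8.88 and 5.29 FPKM in knockout and at 0.83 and 0.86 FPKM in wild type (limma adjusted p = 0.0787, distance 0.373). As in Lgals3bp, library 1 was the higher of the knockout pair. Tnni3, which encodes cardiac troponin I, lay at a distance of 0.527, with 204.14 and 209.96 FPKM in knockout and 41.98 and 47 FPKM in wild type. The likeness rests on 4 libraries of the same contrast and is a description.

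The RNA for galectin-3, the best known partner of the Lgals3bp product, was barely present, and the protein was not measured. Lgals3 (gene ID 16854, chromosome 14, 47373860 to 47386167), also known as the macrophage antigen Mac-2, stood at 0.85 and 0.93 FPKM in knockout and at 1.12 and 0.86 FPKM in wild type. The groups overlapped, and no p-value was computed because the gene did not pass the filter. Its level was 0.5% of the sum of the 7 genes in each knockout library, and 1.1% and 0.7% in wild-type libraries 1 and 2.

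Among the prototype galectins, Lgals1 (gene ID 16852, chromosome 15, 78926725 to 78930465), a widely expressed galectin that cross-links surface glycoproteins, was the second most abundant of the 7 genes in every library. It stood at 44.67 and 36.84 FPKM in knockout and at 23.32 and 23.6 FPKM in wild type. Both knockout libraries were well above the wild-type libraries, which differed little from each other. The mean was 40.8 ± 5.54 FPKM in knockout and 23.5 ± 0.198 FPKM in wild type (SD, n = 2 each), a log2 difference of 0.77 with a standard error of 0.15 (limma, unadjusted p = 0.0018, adjusted p = 0.166 over all genes tested). With knockout library 1 or 2 left out the log2 difference was 0.63 or 0.90. With wild-type library 1 or 2 left out it was 0.76 or 0.77. The long noncoding gene Gm30368 overlaps the start of Lgals1, and the sources used here do not say whether reads were counted by strand, so that some may be shared by both. A pseudogene copy, Lgals1-ps1, is also annotated on chromosome 17.

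Lgals7 (gene ID 16858, chromosome 7, 28863796 to 28866285), a galectin of stratified epithelia that was described in human cells as a p53-induced gene, showed the opposite pattern at a low level. It was listed at 0 in both knockout libraries and stood at 2.29 and 2.05 FPKM in wild type. The groups did not overlap. No fold is given against a group at 0, and the limma fit gave an unadjusted p of 7.4e-05 and an adjusted p of 0.0688 over all genes tested. The limma adjusted p was 0.0263 without the mean-variance trend, 0.084 with a pseudocount of 0.1 and 0.0897 after quantile normalization. With single libraries left out the log2 difference ran from −1.72 to −1.61, a size that the pseudocount sets. The row sums a RefSeq transcript and a transcript assembled from the reads, and the file does not show which of them supplied the wild-type level. Of the 10670 genes tested, 2 were listed at 0 in both knockout libraries and at 1 FPKM or more in both wild-type libraries (0.0187%), and 0 showed the reverse. The other gene of this kind, named after its values were seen, was Perp, a p53 target that encodes a membrane protein of cell junctions, with 1.24 and 1.16 FPKM in wild type (limma adjusted p = 0.125).

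The tandem-repeat galectins differed less between genotypes. Lgals9 (gene ID 16859, chromosome 11, 78962979 to 78984924), whose product is a ligand of the T-cell surface receptor Tim-3, was the most abundant of the 7 genes in every library. It stood at 64.67 and 93.27 FPKM in knockout libraries 1 and 2 and at 56.39 and 84.33 FPKM in wild-type libraries 1 and 2. The genotypes overlapped, because library 2 was the higher in both. Library 1 was at 0.693 of library 2 in knockout and at 0.669 in wild type, whereas the ratio of knockout to wild type was 1.15 between libraries numbered 1 and 1.11 between those numbered 2. The log2 difference was 0.17 with a standard error of 0.25 (limma adjusted p = 0.883), and leaving out single libraries took it to between −0.12 and 0.46.

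Lgals8 (gene ID 56048, chromosome 13, 12439402 to 12464977), whose human counterpart marks damaged endosomes for autophagy, stood at 13.65 and 17.68 FPKM in knockout and at 13.15 and 12.33 FPKM in wild type. Both knockout libraries were higher, library 1 only narrowly. The mean was 15.7 ± 2.85 FPKM in knockout and 12.7 ± 0.580 FPKM in wild type (SD, n = 2 each), a log2 difference of 0.27 with a standard error of 0.16 (limma adjusted p = 0.629). Assembled transcripts are part of its value.

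Lgals4 (gene ID 16855, chromosome 7, 28833122 to 28841710), a galectin known from gut epithelium, stood at 2.03 and 3.19 FPKM in knockout libraries 1 and 2 and at 2.27 and 3.38 FPKM in wild-type libraries 1 and 2. The genotypes overlapped, and library 2 was the higher in both, as for Lgals9. The log2 difference was −0.09 (limma adjusted p = 0.938). The direction was not stable: it was 0.15 with knockout library 1 left out and 0.12 with wild-type library 2 left out. Lgals4 lies on the same chromosome as Lgals7.

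In order of level, the knockout means ran from Lgals9 through Lgals1, Lgals3bp, Lgals8, Lgals4 and Lgals3 to Lgals7. In wild type they ran from Lgals9 through Lgals1, Lgals8, Lgals3bp, Lgals4 and Lgals7 to Lgals3. Of the neighbours in these orders, the values of Lgals1 and Lgals3bp overlapped in knockout and those of Lgals4 and Lgals7 overlapped in wild type. Of other galectin family genes, Lgalsl, a galectin-like gene, stood at 3.43 and 4.14 FPKM in knockout and at 3.76 and 2.8 FPKM in wild type (limma adjusted p = 0.831), and the lens gene Grifin was listed at 0 in every library.

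Galectins act through the sugars on other proteins, so the enzymes that build those sugars were examined as lists. None of the lists had a gene past the adjusted threshold. Of 15 tested genes that branch N-glycans or extend them with lactosamine, 6 lay higher in both knockout libraries and 0 lay lower in both, beside 29.9% and 10.8% of all genes tested. The median log2 difference was 0.10, beside 0.07 over all genes tested. Mgat5, which adds the branch on which lactosamine chains are preferentially built, had the largest difference of this list, at 5.35 and 5.9 FPKM in knockout and 3.57 and 3.11 FPKM in wild type (log2 difference 0.61, limma adjusted p = 0.25). The galactosyltransferase gene B4galt1 stood at 45.78 and 39.14 FPKM in knockout and at 39 and 33.29 FPKM in wild type. Mgat4b, another branching enzyme gene, and B4galt3 overlapped between genotypes, with log2 differences of 0.01 and −0.01.

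Of 17 tested genes for O-glycans and for capping with sialic acid or fucose, 4 lay above wild type in both knockout libraries and 1 below (23.5% and 5.9%, beside 29.9% and 10.8% of all genes tested), with a median log2 difference of 0.14. St3gal4, a sialyltransferase gene that caps lactosamine, differed most, at 47.41 and 50.11 FPKM in knockout and 26.97 and 28.74 FPKM in wild type (log2 difference 0.79, standard error 0.13, limma adjusted p = 0.133). Both knockout libraries were far above both wild-type libraries, and the ratio of means was 1.75. The related St3gal2 stood at 75.83 and 99.55 FPKM in knockout and at 61.92 and 70.62 FPKM in wild type (limma adjusted p = 0.484). St3gal1 overlapped between genotypes. So did Cmas, which activates sialic acid and was the most abundant gene of the list at 123.05 and 201 FPKM in knockout and 134.77 and 203.88 FPKM in wild type.

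**Figure D3:**
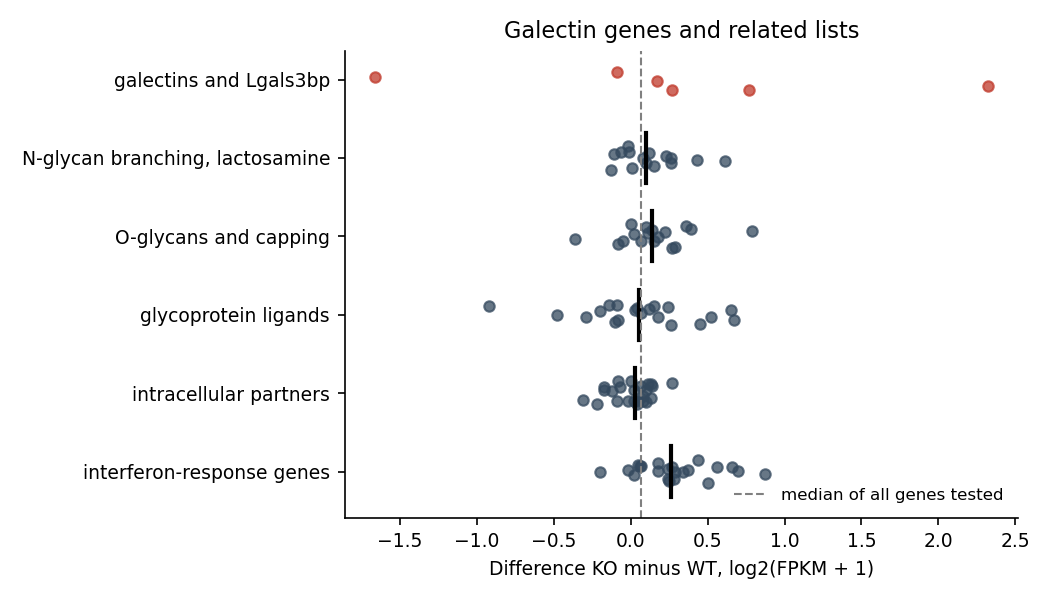
Difference between knockout and wild type on the log2(FPKM + 1) scale (horizontal axis) for the galectin genes and Lgals3bp (red) and for each tested gene of 5 related lists (blue, 1 row per list, with random vertical spread). Black bars are list medians and the dashed line is the median of all genes tested, 0.07. The interferon-response list has a median of 0.26, and its highest gene lies at 0.87; the red point of Lgals7 depends on the pseudocount.

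Of 20 tested glycoproteins known to bind galectins, 5 lay above wild type in both knockout libraries and 4 below (5 of 20 is under the 29.9% of all genes tested, and 4 of 20 is over the 10.8%), with a median log2 difference of 0.06. Tfrc, the transferrin receptor and an erythroid surface glycoprotein, differed most, at 314.14 and 186.58 FPKM in knockout and 530.94 and 397.11 FPKM in wild type (log2 difference −0.92, limma adjusted p = 0.313). Bsg, which encodes basigin, overlapped between genotypes, at 694.46 and 608.23 FPKM in knockout and 644.04 and 744.42 FPKM in wild type.

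Of 24 tested partners of galectins inside the cell, from ESCRT proteins to autophagy receptors, 3 lay above wild type in both knockout libraries and 3 below (12.5% each, beside 29.9% and 10.8% of all genes tested), with a median log2 difference of 0.03. The autophagy receptor gene Sqstm1 stood at 169.95 and 164.58 FPKM in knockout and at 146.8 and 158.43 FPKM in wild type, and Gabarap, which encodes an autophagosome protein, at 350.32 and 310.99 FPKM in knockout and 370.14 and 374.88 FPKM in wild type. Neither passed (limma adjusted p = 0.796 and 0.741). Map1lc3b had a log2 difference of 0.00. Lamtor1, a subunit that anchors mTORC1 regulators to lysosomes, had the largest difference of the list, −0.31 (limma adjusted p = 0.708).

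Only 2 of the matrix partners of galectin-3 binding protein passed the filter. Lamc1, a laminin gamma chain gene, stood at 19.3 and 19.59 FPKM in knockout and at 13.39 and 13.44 FPKM in wild type (log2 difference 0.50, limma adjusted p = 0.25). Col5a1, a collagen gene, stood at 2.45 and 2.26 FPKM in knockout and at 3.03 and 3.96 FPKM in wild type (limma adjusted p = 0.452).

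Because Lgals3bp and Lgals9 are interferon-induced, interferon-response genes were set beside them. None of 22 tested genes passed the adjusted threshold, 6 had an unadjusted p under 0.05 where 11.4% of all genes tested did, and the median log2 difference was 0.26. Of the 22 genes, 11 were higher in both knockout libraries (beside 29.9% of all genes tested) and 0 were lower in both. Xaf1, an interferon-induced antagonist of a caspase inhibitor, differed most, at 4.8 and 4.32 FPKM in knockout and 2.17 and 1.9 FPKM in wild type (log2 difference 0.87, standard error 0.16, limma adjusted p = 0.153). The most abundant genes of the list overlapped between genotypes. Ifi35 stood at 37.53 and 25.54 FPKM in knockout and at 28.16 and 23.04 FPKM in wild type, Ifi27 at 35.48 and 27.74 FPKM in knockout and 32.24 and 29.78 FPKM in wild type, and the RNA-editing enzyme gene Adar at 32.59 and 26.65 FPKM in knockout and 28.27 and 23.67 FPKM in wild type. At somewhat lower levels, Bst2, Isg20 and Trim25, named after their values were seen, were higher in both knockout libraries. Bst2 stood at 28.46 and 22.72 FPKM in knockout and at 19.86 and 14.37 FPKM in wild type. For Isg20 the values were 27.5 and 20.59 against 16.29 and 16.69 FPKM, and for Trim25 22.24 and 20.53 against 18.3 and 16.46 FPKM. None of them passed (limma adjusted p = 0.38, 0.364 and 0.518). Several genes that interferon strongly induces were near or at 0, which are named here after their values were seen. Ifit1 stood at 0.28 and 0.13 FPKM in knockout and at 0.18 and 0.16 FPKM in wild type, and Ifit3 was listed at 0 in every library.

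**Figure D4:**
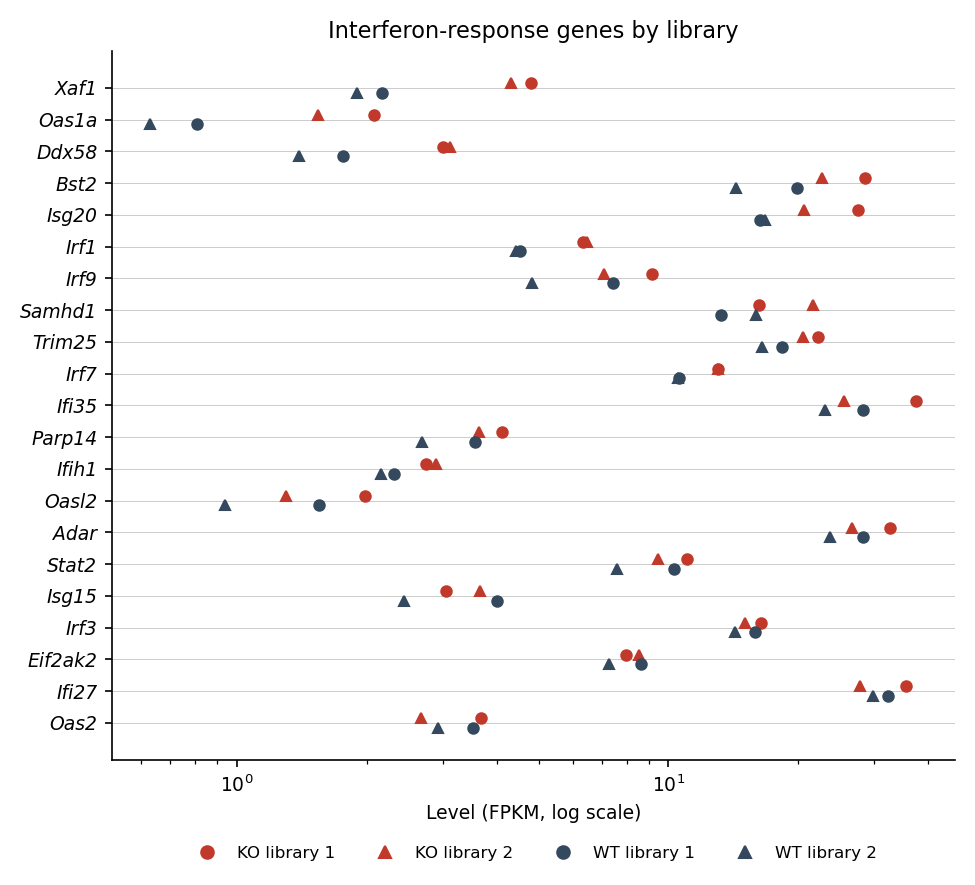
Level in FPKM (horizontal axis, log scale) of the tested interferon-response genes that are reported here in each library, ordered from the largest log2 difference (top) to the smallest; red is knockout (KO), blue wild type (WT), circles library 1 and triangles library 2. Xaf1, at the top, has both knockout libraries above both wild-type libraries, while Ifi27, among the most abundant and near the bottom, overlaps at 35.48 and 27.74 FPKM in knockout and 32.24 and 29.78 FPKM in wild type.

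Markers of other cells that could carry galectins differed in level. Of the 9 macrophage markers in the table only Cd68 passed the filter, and the summed level of the 9 was 3.62 and 2.84 FPKM in knockout and 2.96 and 1.88 FPKM in wild type. Cd68 stood at 2.25 and 1.88 FPKM in knockout and at 1.74 and 1.11 FPKM in wild type (limma adjusted p = 0.605). Fcgr1, at 0.58 and 0.49 FPKM in knockout and 0.23 and 0.16 FPKM in wild type, was also higher in both knockout libraries. Csf1r overlapped, at 0.7 and 0.27 FPKM in knockout and 0.9 and 0.53 FPKM in wild type. Cd163 was lower in both knockout libraries, at 0 against 0.03 and 0.01 FPKM in wild type. Adgre1 did not exceed 0.08 FPKM, Lyz2 was listed at 0 in 3 of the 4 libraries, and C1qb was listed at 0 in all. The 7 granulocyte markers summed to 7.11 and 12.32 FPKM in knockout and 3.29 and 3.85 FPKM in wild type. Nearly all of that was Prtn3, at 6.84 and 12.17 FPKM in knockout and 2.88 and 3.59 FPKM in wild type (limma adjusted p = 0.196), while Elane and Camp were listed at 0 in every library. Ltf and Csf3r were lower in both knockout libraries. Ltf stood at 0.12 and 0.11 FPKM in knockout and 0.3 and 0.24 FPKM in wild type, and Csf3r at 0 against 0.03 and 0.02 FPKM. The part of granulocyte genes in the rise of Lgals3bp was not tested. Fibroblast markers summed to 1.18 and 1.36 FPKM in knockout and 0.78 and 1.04 FPKM in wild type, and lymphocyte markers to at most 0.55 FPKM in a library. The epithelial markers Epcam and Krt8 were listed at 0 in every library, also in the wild-type libraries that held Lgals7 and Lgals4. Megakaryocyte markers summed to 281.5 and 291.0 FPKM in knockout and 253.8 and 308.2 FPKM in wild type, mostly from Itga2b, which MEL cells held at 239.95 and 235.26 FPKM in knockout and 215.4 and 232.49 FPKM in wild type. The platelet chemokine gene Pf4 stood at 21.35 and 37.86 FPKM in knockout and at 22.8 and 58.22 FPKM in wild type. The part of these genes in the galectin levels was not tested.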

How the data were processed

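The authors deposited a table with 1 value per gene and library for 4 libraries of ribosomal RNA-depleted RNA. Its header names no unit. The deposited values were taken as FPKM because each library's values times transcript length summed to between 1.02e+09 and 1.04e+09. TopHat2 and mm10 are named in the submitters' processing notes, and the sources used here do not name the quantifier. Rows combine RefSeq and, per the file headers and identifiers, assembled transcripts. Symbols turned into dates (24) were restored through gene IDs, of which 16316 matched the RefSeq table of GRCm38.p6, the source of coordinates. Genes at 0 are only said to be listed at 0, and no counting interval could be given.

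Libraries were grouped by genotype from the sample titles. Values were converted to log2(FPKM + 1), with a pseudocount of 1, and compared by genotype without covariates (limma 3.58.1, R 4.3.3, empirical Bayes with trended variance, Benjamini-Hochberg adjustment, threshold 0.05). The procedure was tested on simulated data. No exact permutation test was run, since 0.333 is the smallest p that 2 libraries against 2 allow. Ratios are of mean FPKM. Alternatives covered the pseudocount, filter, scaling, trend, library number and each library left out.

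The genes and lists were chosen with earlier results of these data known. Besides the 7 genes, the rule named other galectin genes in the table, per list up to 4 genes past the threshold, otherwise the 3 most abundant, plus the largest difference, the neighbours of Lgals3bp and its 5 nearest genes. Others were named after their values were seen, among them the cell-type markers, Bst2, Isg20, Trim25, Ifit1 and Ifit3. Some genes of the lists enter the counts but are not reported here. Of the 205 list entries, 7 lists concern galectins and 7 are cell-type markers.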

Additional observations from a re-analysis of the deposited data

How the results depend on the processing

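Lgals3bp stayed higher in the knockout under every alternative run, with a log2 difference between 2.24 and 2.50 and, with single libraries left out, between 2.09 and 2.56. It no longer passed with no filter on low genes (log2 difference 2.32), with a mean of at least 5 FPKM (2.32) or after quantile normalization (2.24), nor when wild-type library 1 (2.50) or 2 (2.14) was left out. Among the alternatives that kept all 4 libraries, Lgals1 (0.77) passed in the fit with a replicate block for the library number. Lgals7 (−1.66, a value that the pseudocount sets) passed in that fit and also without the trend. With single libraries left out, Lgals1 ran from 0.63 to 0.90, Lgals7 from −1.72 to −1.61, Lgals4 from −0.32 to 0.15, Lgals8 from 0.09 to 0.44 and Lgals9 from −0.12 to 0.46, so that Lgals4 turned positive without knockout library 1 (0.15) or wild-type library 2 (0.12) and Lgals9 turned negative without wild-type library 1 (−0.12) or knockout library 2 (−0.09). The cause was not tested.

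The count of genes past the threshold, 10 in the main comparison (5 higher, 5 lower), was 0 with no filter (0 higher, 0 lower; 1692 at an unadjusted p under 0.05) and 2 under the mean of 5 FPKM (1 higher, 1 lower). It was 7 after quantile normalization (3 higher, 4 lower) and 8 median-centred. With the replicate block it was 1863 (1388 higher, 475 lower). Across single libraries left out it ran from 3 to 738, with 0 to 431 higher and 3 to 307 lower; the lone library of a genotype is then assumed to vary like the other genotype. Library numbers pair nothing in the labels, although the differences between libraries 1 and 2 correlated across the 10670 genes (r = 0.61 between genotypes, a description), and the block leaves 1 residual degree of freedom per gene. Depth limits Lgals3, Lgals4 and Lgals7 most, the genes with the lowest levels.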
